A study of Mus musculus with 39 samples.

Results

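The transcripts of 3 immunoglobulin chains were followed across 39 mouse lymphomas: Ighm, the constant region of the mu heavy chain, Igha, the constant region of the alpha heavy chain, and Iglv1, a variable segment of the lambda light chain. All probe sets whose annotation names 1 of these genes and no other were taken, 17 of the 45101 on the array, with 11 for Ighm, 3 for Igha and 3 for Iglv1. A probe set is a group of short probes that reports 1 level per array. Each was described on its own, because probe sets of 1 gene can disagree. Ighm and Igha lie on mouse chromosome 12 and Iglv1 on chromosome 16.

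An antibody pairs heavy chains, whose constant region sets the class, with light chains of either the kappa or the lambda type. A B cell first makes mu heavy chain, and class switching can later replace the mu constant region with another, such as alpha, the heavy chain of IgA. A cell normally keeps a single light chain type, and in laboratory mice most B cells use kappa. A B cell that has rearranged its genes carries 1 expressed variable segment for each chain, so a clone can be recognised by the variable segment it transcribes.

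All 39 samples were lymphoma tissue from Eµ-myc mice, which carry a Myc transgene driven by the immunoglobulin heavy chain enhancer and are prone to tumours of B lineage cells. Every sample belongs to the same group, with no untreated, healthy or treated comparison, and the tumours are called here by the number in their labels. Whether the tumours stem from 39 different mice is not stated in the labels, and p-values then reflect the spread among these samples only. Homogenised tumour tissue was used, so fewer cells of a type and less RNA per cell cannot be told apart. Levels are deposited log2 values, on which a difference of 1 is a doubling, and they carry no call of presence or absence.

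The array medians over all probe sets lay between 5.61 and 5.78, and the correlations between arrays between 0.889 and 0.991. Over the tumours 7.33% of 18194 genes varied with an SD of 1 or more, and 0.407% with an SD of 2 or more. Pan B cell markers formed a separate low cluster of 7 tumours (5, 6, 8, 19, 23, 26 and 32). The labels call every sample a lymphoma and name no lineage. Cd79a, the signalling partner of the B cell receptor, was at 3.95 to 7.37 in these tumours, against 8.66 to 10.13 in the other 32. In the same 7 tumours Ighm at its brightest probe set was at 12.43 to 13.62, with a median of 12.74. In the other 32 it was at 8.11 to 14.73, with a median of 13.82, and the 8.11 was that of tumour 18.

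Markers of other cells moved with this cluster, where a score is the mean over a list of each level minus that gene's mean. Tumours 6, 8 and 23 had macrophage scores over 16 markers of 1.80, 1.18 and 1.46. Tumours 5, 19, 26 and 32 had plasmacytoid dendritic cell scores over 10 markers of 2.32, 1.05, 0.98 and 2.63, against -0.95 to 0.70 in the 32 tumours outside the cluster. Siglech, a surface lectin of plasmacytoid dendritic cells, was at 11.30, 10.96, 9.52 and 12.54 in these 4 tumours, against 5.04 to 9.75 in the 32. The part of these cells in the chain levels was not tested. Tumour 18 stood alone for Ighm and tumour 2 was the highest of all at several immunoglobulin probe sets, so values without them are given where they matter.

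A tumour was called low or high at a probe set where its level was at least 2 log2 units, or 4-fold, below or above the median of that probe set. It was called lacking where it was low and also at or under the median of all probe sets on its own array. Levels of different probe sets were not compared with each other.

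**Figure D1:**
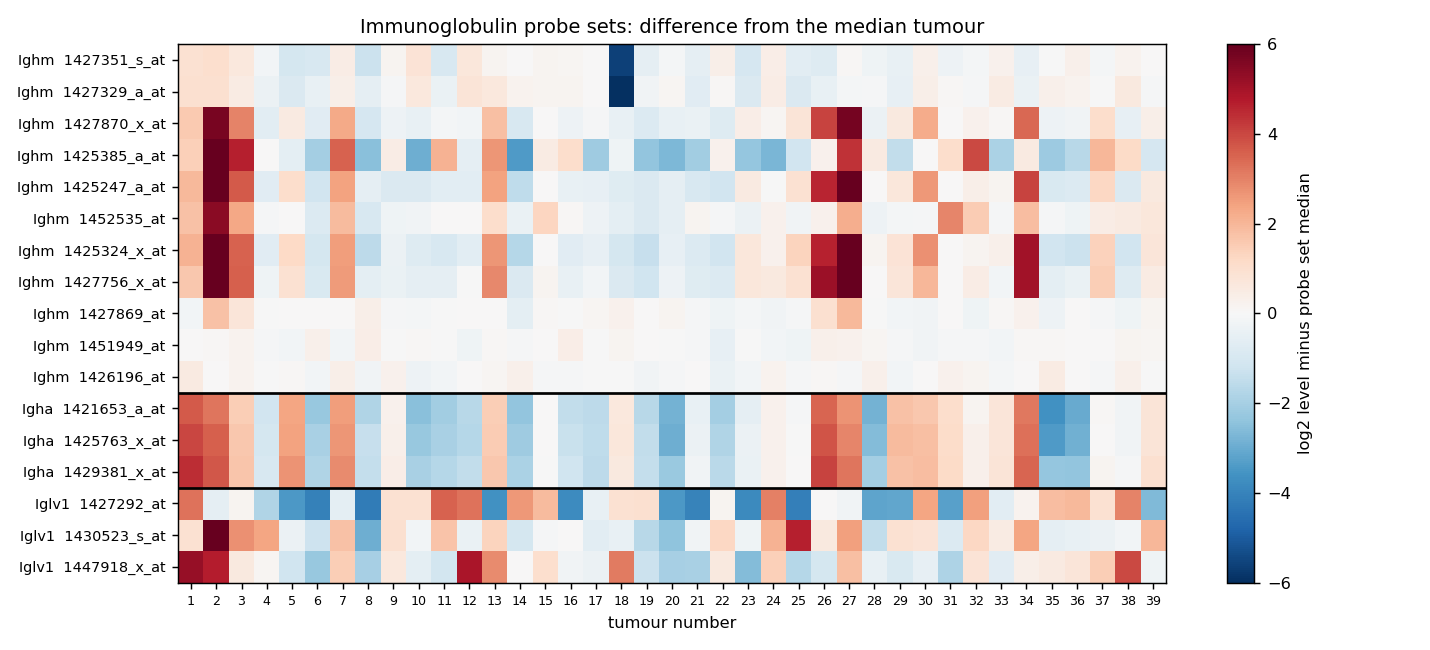
Difference of each tumour's log2 level from the probe set's own median, for the 17 probe sets (rows) in the 39 tumours (columns), red above and blue below, with the darkest colours from 6 log2 units on. The 2 upper Ighm rows are even except for tumour 18, the 3 Igha rows share 1 pattern, and the 3 Iglv1 rows do not.

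At its 2 brightest probe sets Ighm was bright and even in 38 of the 39 tumours. At the probe set with the highest mean (1427351_s_at) the level averaged 13.50 ± 1.05 (SD, n = 39), and its mean exceeded that of 99.5% of probe sets on the array. The lowest level was 8.11 in tumour 18, the median 13.72 and the highest 14.73 in tumour 2. The next lowest tumour, number 8, was at 12.43, so tumour 18 lay apart from the remaining tumours and these differed by little more than 2 log2 units.

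A second bright Ighm probe set (1427329_a_at) gave the same picture. It averaged 13.07 ± 1.10 (SD, n = 39) and reached 7.09 in tumour 18, 12.32 in the next lowest tumour (23) and 14.18 in tumour 2. The 2 probe sets correlated at r = 0.97 over 39 tumours, and at r = 0.899 without tumour 18. Tumour 18 was the single tumour called low at both, and no tumour was lacking or high at either. Its level was still above its array median at both probe sets.

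The other 9 Ighm probe sets did not follow these 2. Probe sets 1427870_x_at, 1425247_a_at, 1425324_x_at and 1427756_x_at moved as a block, with r between 0.982 and 0.99 among themselves. Their r with the 2 bright Ighm probe sets was 0.161 to 0.217, while their r with the Igha probe sets was 0.752 to 0.836. These are descriptions over the same 39 arrays.

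In this block a few tumours stood far above the rest. At 1427870_x_at the level averaged 8.52 ± 1.70 (SD, n = 39), with 6.89 in tumour 8, a median of 7.88 and 13.61 in tumour 27. Tumours 27, 2, 26, 34, 3, 7 and 30 were high there. All 7 were also high at the other 3 probe sets of the block, together with tumour 13, and tumour 1 was added at 1425324_x_at. None of the 4 called a tumour low. At 1425247_a_at, 1425324_x_at and 1427756_x_at, 14, 24 and 29 of the 39 tumours were at or under their array median.

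The widest Ighm probe set was 1425385_a_at, which averaged 8.13 ± 2.38 (SD, n = 39). Its level was 4.70 in tumour 14, the lowest, 8.11 at the median and 14.64 in tumour 2. There 11 tumours were low, and 5 of them (14, 10, 24, 20 and 8) were lacking. Tumours 2, 3, 27, 32, 7, 13 and 11 were high. Tumours 14, 10, 24 and 20, which lack the signal here, had 13.73, 14.54, 14.13 and 13.60 at the brightest Ighm probe set, so a tumour can be lacking at 1 Ighm probe set and near or above the median at another.

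Of the remaining 4 Ighm probe sets, 1452535_at averaged 6.12 ± 1.25 (SD, n = 39) and was high in tumours 2, 31, 3 and 27, with 11.08 in tumour 2. Probe set 1427869_at averaged 4.79 ± 0.49 (SD, n = 39), and a 2-part mixture of its values set tumours 2, 26 and 27 apart. Probe sets 1451949_at and 1426196_at were at or under the array median in 39 of 39 tumours, with SDs of 0.18 and 0.21. Over all 11, some tumour was low at 3 probe sets and high at 6, and 12 tumours were high at 1 probe set or more. Tumours 2, 3 and 27 were high at 6 of the 11.

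**Figure D2:**
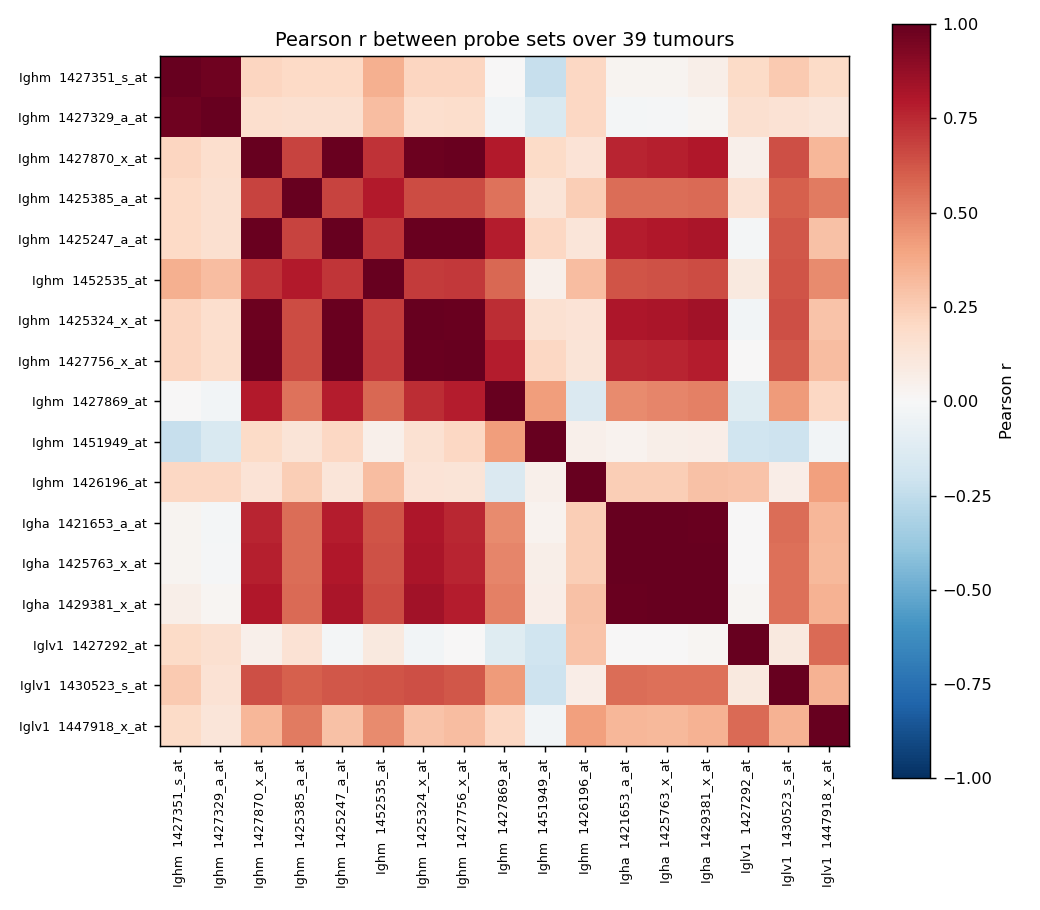
Pearson r over 39 tumours between each pair of the 17 probe sets, from -1 (blue) to 1 (red). The 2 bright Ighm probe sets form 1 block, 4 further Ighm probe sets form another that extends to the 3 Igha probe sets, and the 3 Iglv1 probe sets correlate at 0.099 to 0.563.

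Tumour 18, with the low Ighm level, was also the lowest of all tumours for Ighv14-2, a heavy chain variable segment, at 4.33 against 5.67 to 12.75 in the other tumours. Igha and Iglv1 were not low in it at their brightest probe sets. Igha was at 11.09, 0.64 above the median tumour, and Iglv1 at 9.31, 0.93 above it. The kappa probe set Igk 1452557_a_at was at 8.84 in tumour 18, the highest of the 39. Tumours 2, 27, 18 and 20 were high at 1451951_at, a probe set of a kappa variable segment. Tumour 18 was not low at the 3 bright probe sets that list Igkc, the kappa constant region, beside further genes. Some other kappa probe sets went the other way. Igkv9-120, a kappa variable segment, was at 3.78 at 1460423_x_at in tumour 18, the lowest of the 39, against a median of 7.21 over all tumours. Tumour 18 was low and lacking there, which at a single variable segment does not show that kappa as a whole was low. It was also the lowest at Igk 1426178_at (3.08) and Igk-V21 1427858_at (3.13), which were at or under the array median in 38 and 34 of the 39 tumours. Ighg3, the gamma 3 heavy chain, was at 6.48 there, against a median of 6.68 in the other tumours.

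B lineage genes were present in tumour 18. Cd79a was at 9.13, against 3.95 to 10.13 in the other tumours, and its partner Cd79b at 12.57, against 9.80 to 12.89. Ms4a1 (CD20 of the B cell surface) was at 13.67, the highest of the 39 tumours. Genes of germinal centre B cells, where antibody genes are mutated and switched, were likewise at the top.

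Gcsam, a germinal centre adaptor protein, was at 10.37 in tumour 18, against a median of 3.39 in the other tumours. Rgs13, a regulator of G protein signalling in germinal centre cells, was at 12.31 in tumour 18, against a median of 3.18. Bcl6, the master repressor of the germinal centre programme, was at 11.14 in tumour 18, against a median of 6.50. Tumour 27 was the next highest for these 3 genes, with 9.38 for Gcsam, 11.63 for Rgs13 and 10.91 for Bcl6, and its Ighm level was 13.79.

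Tumour 18 also carried liver transcripts that were low elsewhere. Alb, serum albumin, was at 11.36 in tumour 18, against 4.12 to 6.86 in the other tumours. Hpx, the haem carrier hemopexin, was at 10.37 in tumour 18, against 4.09 to 5.50. Cyp3a11, a liver cytochrome, was at 8.65 in tumour 18, against 2.55 to 4.29. The part of these transcripts in the Ighm value of this tumour was not tested.

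**Figure D3:**
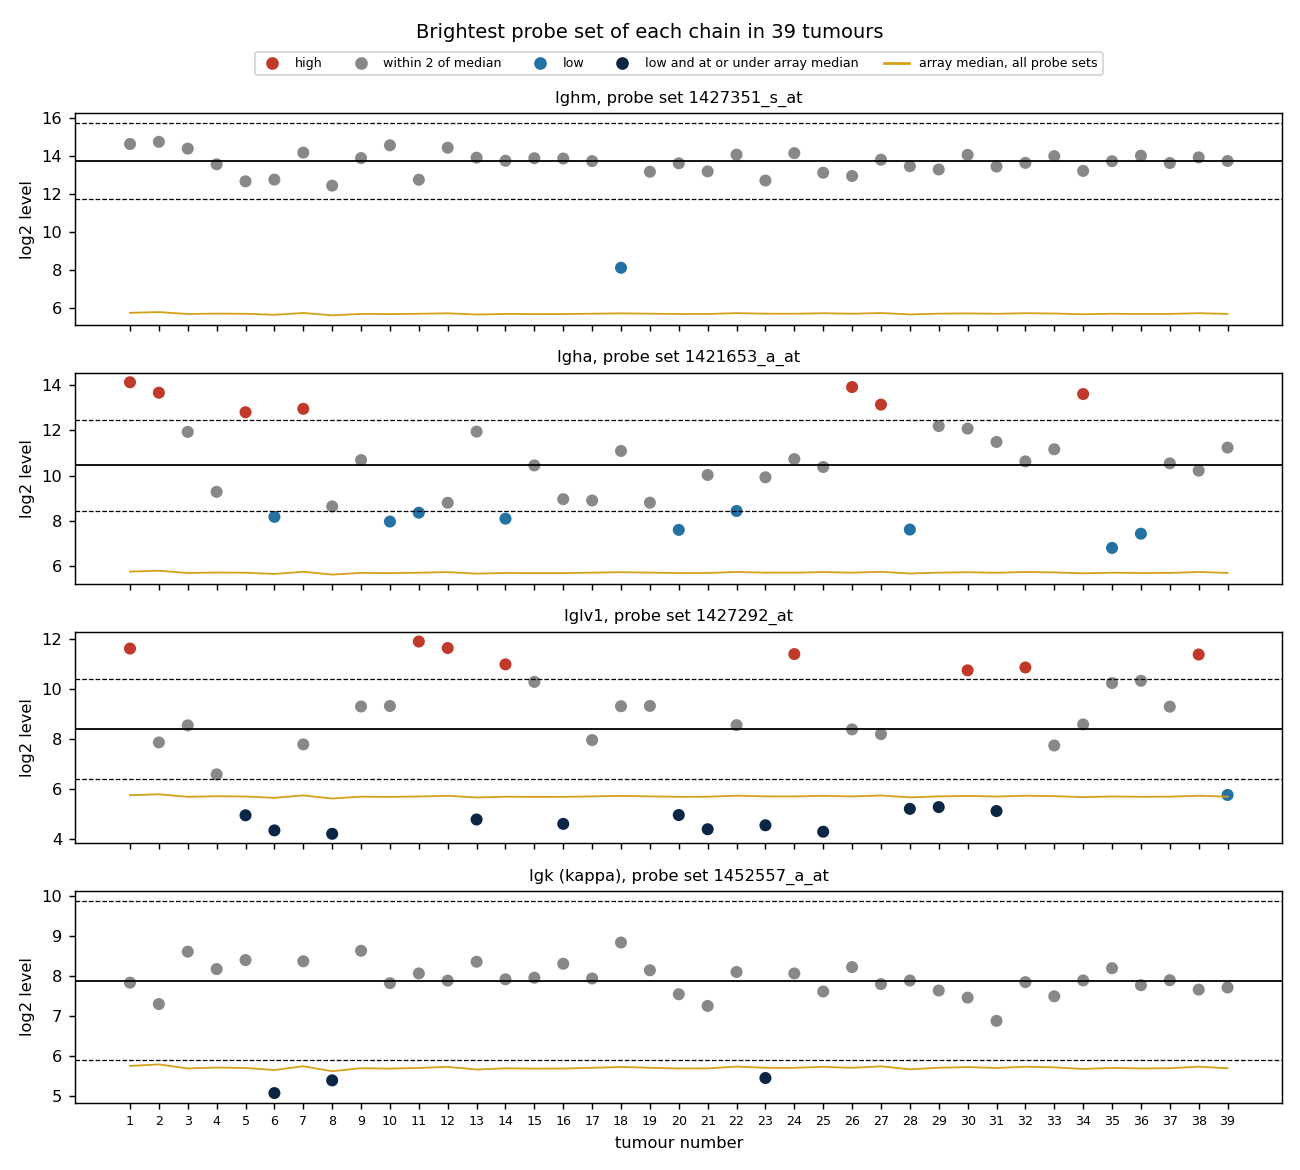
Log2 level of the brightest probe set of Ighm, Igha, Iglv1 and Igk (kappa) in each of the 39 tumours. Probe sets annotated to several genes, among them brighter kappa ones, are not shown. Lines give the median (solid), 2 log2 units above and below it (dashed) and the median of all probe sets on each array (yellow). Ighm is low in tumour 18 alone and Igha spreads without reaching the array median. Iglv1 falls to it or under it in 12 tumours, and Igk at this probe set does so in tumours 6, 8 and 23.

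Igha ranged over 7.34 log2 units. At the probe set with the highest mean (1421653_a_at) it averaged 10.38 ± 2.03 (SD, n = 39), with 6.79 in tumour 35, a median of 10.45 and 14.13 in tumour 1. A 2-part mixture of the values was not preferred over a single distribution. The SD was larger than that of 99.7% of probe sets on the array.

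The 3 Igha probe sets correlated at 0.990 to 0.998. Tumours 1, 26, 2, 34, 27, 7 and 5 were high at all 3. At 1421653_a_at these 7 had 14.13, 13.92, 13.67, 13.61, 13.14, 12.96 and 12.81. The nearest tumour under the limit, number 29, was 1.74 above the median.

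At 1421653_a_at 9 tumours were low, namely 35, 36, 20, 28, 10, 14, 6, 11 and 22. Of these, 6 were low at 1425763_x_at and 4 at 1429381_x_at. Tumours 20, 28, 35 and 36 were low at all 3. The last tumour inside the limit, number 22, differed from the median by -2.02 and the first outside it, tumour 8, by -1.82. No tumour was lacking Igha, since every level at the 3 probe sets was above the array median.

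No tumour that was high for Igha was low for Ighm at its brightest probe set. Tumours 5, 26 and 34 were under the Ighm median there, and tumours 1, 2, 7 and 27 above it. In the 7 tumours that were high for Igha, the brightest Ighm probe set was between 12.65 in tumour 5 and 14.73 in tumour 2. Over 39 tumours the levels of the 2 genes had r = 0.0305 (adjusted permutation p = 0.95) and rho = 0.137 (adjusted p = 0.56). With all probe sets of each gene averaged, which takes in the Ighm block that correlated with Igha, r was 0.748 (adjusted permutation p = 0.00012) and rho 0.766. Tumours 5 and 26, both high for Igha, are also 2 of those with the high plasmacytoid dendritic cell scores. Adjusted p-values for such relations are Benjamini-Hochberg values within each setting. That was 25 relations at the brightest probe sets over all tumours, and fewer in some alternatives. They come from 2-sided permutation tests with a smallest possible p of 1e-05, or from exact ones under 10 values.

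Iglv1 had the widest SD of the 3 chains at the brightest probe sets. At 1427292_at it averaged 7.96 ± 2.58 (SD, n = 39), with 4.20 in tumour 8, a median of 8.38 and 11.90 in tumour 11. The SD exceeded that of 99.9% of probe sets. A 2-part mixture gained 5.14 in BIC, under the 10 required for a split, whereas for Igha the gain was -4.07. Tumours 8, 25, 6, 21, 23, 16, 13, 5, 20, 31, 28 and 29 were lacking, at 4.20 to 5.27. Tumour 39, at 5.76, was low but just above its array median.

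At the upper end, tumours 11, 12, 1, 24, 38, 14, 32 and 30 were high, at 10.75 to 11.90. Nearest to the limits, tumour 4 differed from the median by -1.80, and tumour 36, at 10.33, was just under the upper limit. In total 21 of 39 tumours were at least 4-fold away from the median, 13 below and 8 above.

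The other 2 Iglv1 probe sets ranked the tumours differently. Probe set 1430523_s_at averaged 7.66 ± 1.77 (SD, n = 39), with 4.20 in tumour 8, a median of 7.12 and 13.12 in tumour 2. It was lacking in tumours 8 and 20 and high in tumours 2, 25, 3, 27, 34, 4, 24 and 39. Tumour 24 was the 1 tumour high both here and at 1427292_at.

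Probe set 1447918_x_at averaged 7.17 ± 2.01 (SD, n = 39), with 4.24 in tumour 23, a median of 6.83 and 12.06 in tumour 1. It was lacking in tumours 23 and 6 and high in tumours 1, 12, 2, 38, 18 and 13. Tumours 1, 12 and 38 were high both here and at 1427292_at. No tumour was high or lacking at all 3 probe sets.

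Single tumours show the disagreement. Tumour 25 was lacking at 1427292_at with 4.28 and high at 1430523_s_at with 11.78. Tumour 13 was lacking at 1427292_at with 4.77 and high at 1447918_x_at with 9.68. Which lambda segments the probes of each set match was not tested.

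A further probe set, 1424931_s_at, is annotated to Iglc1 and Iglv1 together and so names no single gene. It averaged 9.29 ± 2.29 (SD, n = 39) and correlated at 0.812 with 1427292_at, 0.562 with 1430523_s_at and 0.638 with 1447918_x_at. Tumours 8, 20, 23 and 28 were lacking there, and all 4 were also lacking at 1427292_at. Tumours 2, 12, 11, 25, 1, 24 and 38 were high there, and of these tumour 25 was lacking at 1427292_at. The other 4 probe sets that list Ighm beside further genes averaged 3.29 to 5.39.

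The kappa light chain was more even at the brightest probe set annotated to Igk alone, but not at every kappa probe set. Igk 1452557_a_at averaged 7.73 ± 0.81 (SD, n = 39), with 5.06 in tumour 6, a median of 7.89 and 8.84 in tumour 18. Tumours 6, 8 and 23 were low and lacking, at 5.06, 5.38 and 5.44, and they formed a separate cluster. Another Igk probe set, 1425738_at, averaged 7.40 ± 2.04 (SD, n = 39) and was lacking in tumours 1 and 6. The SD was 2.67 at Igkv9-120 1460423_x_at, so kappa probe sets disagreed too.

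Of the brightest Iglv1 and Igk probe sets, 3 tumours (6, 8 and 23) were lacking at both, 9 at that of Iglv1 alone and 0 at that of Igk alone. These counts hold for this pair of probe sets only. The 9 include tumour 5 of the low pan B cell cluster. At 3 probe sets that list Igkc, the kappa constant region, beside further genes, tumours 6, 8 and 23 were low but none was lacking. In the 9 tumours lacking at the brightest Iglv1 probe set but not at that of Igk, the brightest Igk probe set was at 6.88 to 8.40. Some of these 9 had Iglv1 signal at another probe set, as tumours 13 and 25 above. Tumours 6, 8 and 23 had Ighm levels of 12.74, 12.43 and 12.70 and Igha levels of 8.17, 8.63 and 9.92. They were thus near the bottom of the 38 tumours for Ighm, yet far above their array medians.

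Some B cell genes were low in the same 3 tumours. Their Cd79a levels were 3.95 to 4.18, and those of Pou2af1, a B cell coactivator of immunoglobulin transcription, 3.10 to 5.09. Their Cd79b levels, 11.70 to 12.51, lay within the range of the other tumours. Adgre1, an adhesion receptor that marks macrophages, was at 12.55 to 13.12 in them, against 5.92 to 9.90 in the other 36 tumours. The macrophage scores given above were 1.18 or more in these 3, and tumour 2 reached 1.27.

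Of the pairs of chains, the rank relation of Ighm and Iglv1 passed the test at the brightest probe sets. These 2 genes had r = 0.194 (adjusted permutation p = 0.54) and rho = 0.449 (adjusted p = 0.023), and without tumour 18 r was 0.497 (adjusted p = 0.0092) and rho 0.496 (adjusted p = 0.0089). The rank relation was not called without the low pan B cell cluster (rho = 0.376, adjusted permutation p = 0.13), without tumours 2, 6 and 8, whose arrays had the lowest mean correlation with the others (rho = 0.414, adjusted p = 0.056), or given the pan B cell score (rho = 0.177, adjusted p = 0.49). Igha and Iglv1 had r = 0.00338 (adjusted p = 0.98). Iglv1 and kappa, in the 36 tumours outside the low kappa cluster, had r = 0.17 (adjusted p = 0.58) and rho = 0.104 (adjusted p = 0.68). No inverse relation was thus detected at the brightest Iglv1 and Igk probe sets, and other kappa probe sets were not tested.

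To ask which genes moved with each chain, the level of every other gene was fitted with limma against the brightest probe set of the chain over the 39 tumours. A slope is the log2 change for a rise of 1 SD in the chain, with the SD taken over the tumours of that fit. Slopes of fits over different tumours therefore differ in unit, and their sizes cannot be compared directly. A gene was called at a Benjamini-Hochberg adjusted p under 0.05 over 18193 genes.

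Along Ighm, 27 genes rose (0.148% of those tested) and 175 fell (0.962%). These fits include tumour 18, the single tumour low for Ighm, and values without it stand beside them. The gene most alike in pattern was Arhgef18, with r = 0.722 over 39 tumours. Its level was 6.01 in tumour 18, against 7.13 to 10.12 in the other tumours, and its slope was 0.63 ± 0.10 (SE, limma adjusted p = 2.7e-05). Without tumour 18 the slope was 0.37 (adjusted p = 0.026), per SD of Ighm as taken without that tumour.

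Ighv14-2 rose with Ighm, with a slope of 1.09 ± 0.20 (SE, limma adjusted p = 0.00059) and of 0.87 without tumour 18 (adjusted p = 0.0096). It was the 1 called gene of 5 measured other immunoglobulin genes. Alb fell with Ighm at a slope of -0.93 ± 0.14 (SE, limma adjusted p = 1.2e-05), and its slope was -0.04 without tumour 18 (adjusted p = 0.89). Of 10 measured germinal centre genes 4 fell (Gcsam, Gna13, Mybl1 and S1pr2), and the list's median slope was -0.46 beside -0.003 over all genes. The slope of Gcsam was -0.79 ± 0.20 (SE, limma adjusted p = 0.041) and turned to 0.22 without tumour 18 (adjusted p = 0.48), when 0 of the 10 were called. No member of the other 16 of 18 gene lists was called along Ighm over the 39 tumours.

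Over the other 38 tumours, which span 12.43 to 14.73, more genes were called along Ighm: 305 rose (1.68%) and 496 fell (2.73%). Of 13 measured pan B cell genes 8 rose, among them Cd79a, Pou2af1, Bank1, Blk, Cd22, Fcrla and Pax5, with a median slope of 0.46 beside -0.01 over all genes. Of 15 mature B cell genes 7 rose and 0 fell, namely Ms4a1, Fcmr, Tnfrsf13c, Cxcr5, Cd55, Ccr7 and S1pr1. Fcmr encodes the receptor for IgM, Tnfrsf13c the receptor for the survival factor BAFF, and Cxcr5 and Ccr7 are chemokine receptors that guide B cells in lymphoid organs. Of 16 macrophage genes 2 fell, Adgre1 and Cd68.

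When the low pan B cell cluster was left out as well, 438 genes rose (2.41%) and 576 fell (3.17%). In that fit 0 of the 13 pan B cell genes and 6 of the 15 mature B cell genes were called, all 6 upward, and 3 of 14 precursor B cell genes fell. Of the 16 macrophage genes 2 rose and 0 fell there, and Adgre1 and Cd68 had slopes of 0.10 (limma adjusted p = 0.73) and 0.09 (adjusted p = 0.60), against -0.71 and -0.49 with the cluster included. Ms4a1 had a slope of 1.99 without tumour 18 (limma adjusted p = 5.5e-05) and of 1.06 without that cluster too (adjusted p = 0.018). Pou2af1 had 2.00 (adjusted p = 0.0018) and then -0.11 (adjusted p = 0.088). With all 39 tumours neither gene was called (adjusted p = 0.80 and 0.76).

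The mature B cell score gave the same contrast. Its relation with Ighm had r = 0.243 (adjusted permutation p = 0.49) and rho = 0.67 (adjusted p = 0.00012) over 39 tumours. Without tumour 18 r was 0.765 (adjusted p = 0.00025) and rho 0.777. The relations of Ighm with the precursor B cell score (r = 0.196) and the plasma cell and secretion score (r = -0.0263) did not pass (adjusted p = 0.54 and 0.95).

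**Figure D4:**
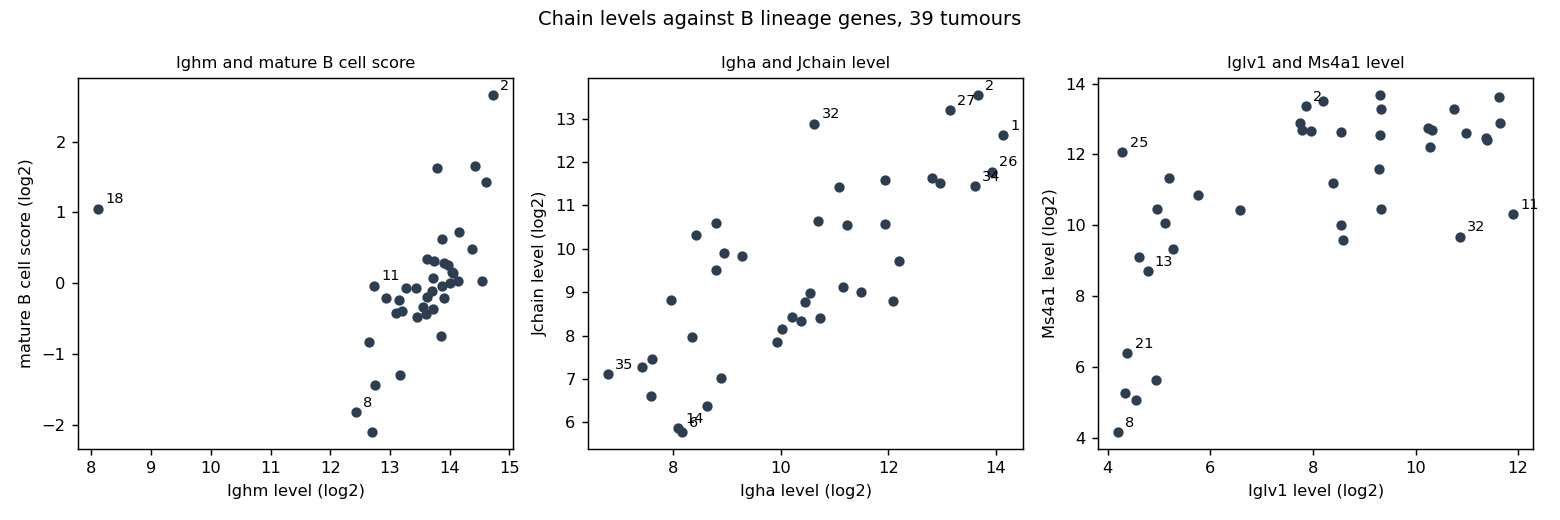
Log2 level of the brightest Ighm, Igha and Iglv1 probe set (horizontal) against the mature B cell score, the Jchain level and the Ms4a1 level (vertical, log2), 1 point per tumour with some tumour numbers. Tumour 18 stands apart in the Ighm panel with a mature B cell score of 1.06, Jchain spans 5.78 to 13.54 with Igha, and Ms4a1 is under 7 only where Iglv1 is under 5.

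Along Igha, 41 genes rose (0.225% of those tested) and 2 fell (0.011%). Jchain, the joining chain that links IgA into dimers and IgM into pentamers, led them with r = 0.769 over 39 tumours. Jchain was at 5.78 in tumour 6, a median of 9.11 and 13.54 in tumour 2. It rose by 1.59 ± 0.21 per SD of Igha (SE, limma adjusted p = 6.5e-05). Without tumour 2 the slope was 1.48 (adjusted p = 0.00043), and Jchain was then the 1 gene called upward (0.0055%), with 0 downward (0%).

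The next most alike genes to Igha were Sema3a (r = 0.661) and Spon1 (r = 0.635), again over 39 tumours. Of 20 genes of plasma cells and secretion, Jchain alone was called, with a median slope of 0.22 for the list beside -0.01 over all genes. The score of that list, which includes Jchain, rose with Igha at r = 0.591 (adjusted permutation p = 0.00083) and rho = 0.641 (adjusted p = 0.00012), and r was 0.553 without the 2 tumours farthest from the Igha median. Of 20 measured genes of switching to IgA, which include the TGF-beta pathway and gut homing receptors, 0 were called, with a median slope of 0.09, and apart from Jchain and the 2 T cell genes named next no member of the 18 lists was called along Igha.

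Other genes that rose with Igha belong to several cell types. Pla2g2d, a secreted phospholipase, had a slope of 1.17 ± 0.26 (SE, limma adjusted p = 0.043). Ccl5, a T cell and NK cell chemokine, had a slope of 1.03 ± 0.23 (SE, adjusted p = 0.045). Clu, the secreted chaperone clusterin, had a slope of 0.96 ± 0.20 (SE, adjusted p = 0.041), and Lyve1, a hyaluronan receptor of lymphatic endothelium, a slope of 0.97 ± 0.22 (SE, adjusted p = 0.043). These 4 were highest in tumours 1, 2, 2 and 3, and none was called without tumour 2 (adjusted p = 0.14 to 0.19).

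Of 14 measured T cell markers 2 rose with Igha, Cd3d with a slope of 0.84 (limma adjusted p = 0.043) and the costimulatory receptor Icos with a slope of 0.55 (adjusted p = 0.041). Their list had a median slope of 0.53 beside -0.01 over all genes. Neither was called without tumour 2 (adjusted p = 0.17 and 0.084). The T cell score was 2.67 in tumour 2 and 1.91 in tumour 27, the range over tumours being -1.13 to 2.67. The part of T cells in the Igha levels was not tested.

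IgA is made in large amounts by plasma cells of salivary glands, so salivary transcripts were checked. They formed a separate high cluster of 9 of the 39 tumours (3, 7, 8, 13, 15, 25, 37, 38 and 39). Of the 7 tumours high for Igha 1, tumour 7, belonged to it. Within the 9 tumours Igha and the salivary score had r = -0.242 (adjusted exact permutation p = 0.8), and within the other 30 r = -0.0903 (adjusted permutation p = 0.81). Relations within a cluster cannot show a difference between the clusters. Igha levels in the 9 tumours were 8.63 to 12.96 with a median of 10.54, beside a median of 10.45 over all 39 tumours. The difference between the clusters was not tested.

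Along Iglv1, 11 genes rose (0.0605% of those tested) and 3 fell (0.0165%). Ms4a1 was at 4.17 in tumour 8, a median of 11.59 and 13.67 in tumour 18, and had a slope of 1.71 ± 0.31 (SE, limma adjusted p = 0.011). Bank1, an adaptor of the B cell receptor, had a slope of 1.09 ± 0.21 (SE, adjusted p = 0.017). S1pr1, the receptor by which lymphocytes leave lymphoid organs, had a slope of 0.71 ± 0.12 (SE, adjusted p = 0.0075) and was the gene most alike to Iglv1 (r = 0.684 over 39 tumours).

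Cd74, the invariant chain of MHC class II, had a slope of 0.80 ± 0.15 along Iglv1 (SE, limma adjusted p = 0.014). P2ry10, a lysophospholipid receptor of lymphocytes, had a slope of 1.25 ± 0.25 (SE, adjusted p = 0.021), and the aspartic protease Napsa a slope of 0.50 ± 0.09 (SE, adjusted p = 0.011). Ap4m1, a subunit of an adaptor complex, fell at -0.32 ± 0.06 (SE, adjusted p = 0.017) and Comtd1, a putative methyltransferase, at -0.28 ± 0.06 (SE, adjusted p = 0.023).

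By list, 2 of 15 mature B cell genes (Ms4a1 and S1pr1) and 1 of 13 pan B cell genes (Bank1) rose along Iglv1, with median slopes of 0.48 and 0.38 beside -0.003 over all genes. None of the 14 precursor B cell genes or the 20 plasma cell and secretion genes was called in this limma fit. With the pan B cell score as a covariate 35 genes rose (0.192%) and 9 fell (0.0495%). In that fit Cd74 kept its call (slope 0.88, adjusted p = 0.018), while Ms4a1 (slope 0.91, adjusted p = 0.068), Bank1 (0.53, 0.12) and S1pr1 (0.44, 0.058) did not. Along the other Iglv1 probe sets 48 genes rose (0.264%) and 10 fell (0.055%) for 1430523_s_at, and 437 rose (2.4%) and 399 fell (2.19%) for 1447918_x_at. Along 1430523_s_at Ms4a1 had a slope of 0.87 (adjusted p = 0.37) and Cd74 of 0.15 (adjusted p = 0.82), and along 1447918_x_at of 1.49 (adjusted p = 0.0074) and 0.59 (adjusted p = 0.036).

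The mature B cell and pan B cell scores rose with Iglv1. Iglv1 and the mature B cell score had r = 0.587 (adjusted permutation p = 0.00083) and rho = 0.677 (adjusted p = 0.00012) over 39 tumours, and r = 0.551 without the 2 tumours farthest from the Iglv1 median. Without the low pan B cell cluster r was 0.461 and lost its call (adjusted permutation p = 0.051), while rho was 0.587 (adjusted p = 0.0035). Iglv1 and the pan B cell score had r = 0.62 (adjusted p = 0.00083) and rho = 0.7 in the 32 tumours outside the low pan B cell cluster. With the Iglv1 probe sets averaged r was 0.392 there and not called (adjusted permutation p = 0.067), and rho 0.436 (adjusted p = 0.047). Within the 7 tumours of that cluster r was 0.948 (adjusted exact permutation p = 0.052). The precursor B cell score had r = -0.0519 with Iglv1 (adjusted p = 0.89).

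The genes called depended on which probe set stood for the chain. The 2 bright Ighm probe sets gave 27 and 25 genes upward and 175 genes downward each. The 4 probe sets of the Ighm block gave 157 to 293 genes upward and 5 to 26 downward. The genes most alike to the block probe sets were Tnfsf8, Cd96 and Cd27 with r of 0.817, 0.790 and 0.789 at 1427870_x_at over 39 tumours. For the other Iglv1 probe sets the most alike genes were Slfn1 (r = 0.700) and Tmem123 (r = 0.769).

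**Figure D5:**
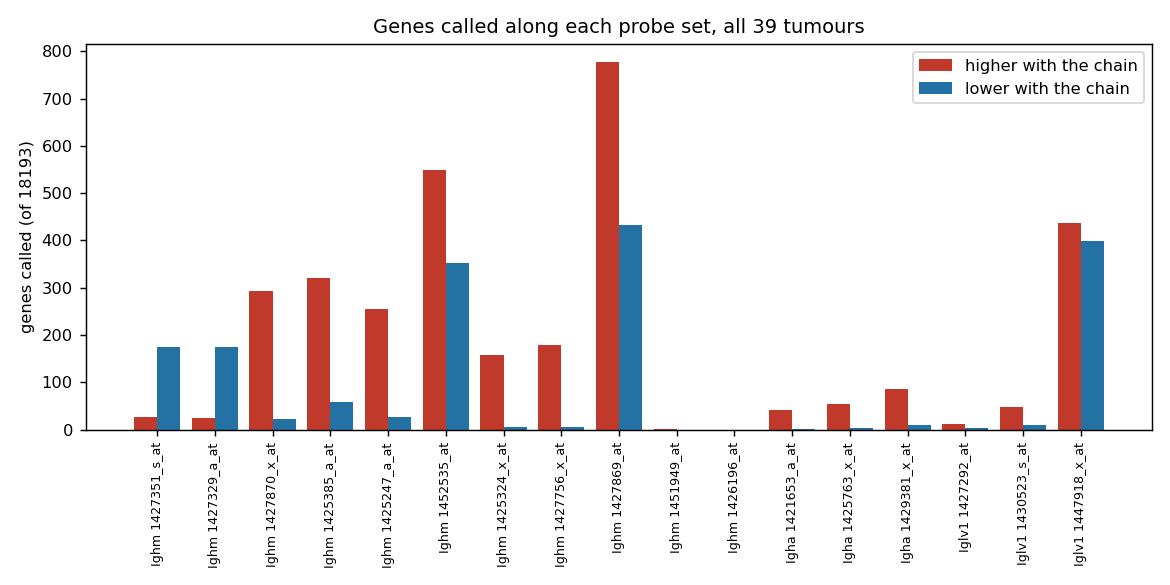
Number of genes called by limma (adjusted p under 0.05, of 18193) as higher (red) or lower (blue) along each of the 17 probe sets over 39 tumours. The counts range from 0 at 1426196_at to 777 upward and 432 downward at 1427869_at, and the 3 Igha probe sets give 41, 54 and 86 upward.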

How the data were processed

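RNA from 39 lymphomas was measured on 1 Affymetrix array each. Per the submitters' processing notes the authors used RMA and affy, and what they deposited is 1 log2 level for each probe set and array. RMA subtracts background, quantile normalizes arrays and summarises probes, so dim levels are compressed and a change of total RNA cannot be seen. That the scale is log2 was inferred from the range of the deposited values, the version of affy is not given in the sources used here, and the number of arrays limits the precision.

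Probe sets were named from the platform annotation (34958 name 1 gene, 932 several, 9211 not listed). Entrez identifiers of 34754 matched the RefSeq table of GRCm38.p6, used for names and chromosomes. A gene was represented by its probe set with the highest mean. No column was left unused.

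Levels were fitted with limma 3.58.1 (lmFit, eBayes with trend) in R 4.3.3, separate clusters were found with mclust 6.1.1 (2 components of equal variance gaining over 10 in BIC, at least 3 tumours in the smaller), and correlations were tested with 100000 permutations (exact pairings under 10 values). In simulated data with 200 of 18193 genes changed, slopes of 0.5 were recovered for 86.6% (Ighm), 88.1% (Igha) and 88.1% (Iglv1) of the genes given them. The simulated noise was normal and independent between genes, unlike real levels, so recovery in the real data can differ. Named genes were all probe sets of the members, other immunoglobulin genes and Jchain, the genes most alike by Pearson r, the called genes with the largest slopes, the called members of 18 gene lists, and genes that stand apart in tumour 18, which were chosen after their values were seen. The members, lists and tests were chosen with earlier results of these data known. Alternatives left out tumours, changed the probe set, the limit of 2 log2 units or the model.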

Additional observations from a re-analysis of the deposited data

How the results depend on the processing

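No paired analysis was possible because all tumours form 1 group. The fit within the larger cluster of a chain's level was not run, because the levels of the 3 chains did not split under the rule used. For Ighm the gain in BIC was 31.73, but the rule of at least 3 tumours in the smaller part was not met. Fits and relations without tumour 18 or tumour 2 were chosen after seeing the data. Where no cause is given, the cause was not tested.

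At the brightest probe sets the counts of low and high tumours at the limit of 2 log2 units stayed within 1.5 times at 1.5 log2 units and after subtracting array medians. At 3 log2 units Igha had 2 low and 4 high tumours and Iglv1 4 high. At other probe sets counts moved further: at 1.5 log2 units, low tumours numbered 11 at 1425763_x_at and 10 at 1429381_x_at, with 11 high at each, 7 were low at 1447918_x_at, 1 at 1425247_a_at and 2 at 1425324_x_at, and 8 were high at 1452535_at and 2 at 1427869_at.

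Along Ighm, 43 genes rose without the low pan B cell cluster, 49 without tumour 2, 305 rose and 496 fell without tumour 18, and 438 rose and 576 fell without both. Along 1427870_x_at, 1425385_a_at, 1425247_a_at, 1452535_at, 1425324_x_at, 1427756_x_at, 1427869_at, 1451949_at and 1426196_at, 293, 321, 254, 550, 157, 178, 777, 1 and 0 genes rose, and 22, 58, 26, 353, 5, 5, 432, 0 and 0 fell. At 1426196_at an unadjusted p under 0.05 was reached by 857 genes upward and 652 downward, and at 1451949_at by 951 downward. Among genes above the median level 6 rose and 1 fell, with fewer genes tested.

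Along Igha, 86 genes rose and 10 fell with 1429381_x_at, 2 and 0 among genes above the median level, 1 and 0 without tumour 2, and 1 and 0 without tumours 2, 6 and 8. The genes that fell numbered 8 without the low pan B cell cluster, 4 with the pan B cell score as covariate, 5 with a gene's probe sets averaged and 0 without trend. In the limma fits with 0 falling, 602, 860, 668 and 1048 genes fell at an unadjusted p under 0.05 without tumour 2, without tumours 2, 6 and 8, among genes above the median level and without trend.

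Along Iglv1, 17 genes rose without the low pan B cell cluster, 3 rose and 0 fell without tumours 2, 6 and 8 (805 fell at an unadjusted p under 0.05), 35 and 9 with the pan B cell score as covariate, 48 and 10 with 1430523_s_at, 437 and 399 with 1447918_x_at, 28 and 24 among genes above the median level, 19 and 10 with a gene's probe sets averaged, and 30 and 17 without tumour 2. Without trend 5 fell.

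Of the genes followed through every setting, 4 had slopes that turned. Arhgef18 was -0.129 along 1427869_at and -0.32 along 1451949_at, Ighv14-2 -0.414 along 1451949_at, and Alb 0.157 along 1451949_at and 0.0667 without tumour 18 and the low pan B cell cluster. Gcsam was 0.221 without tumour 18, 0.146 without that cluster too, and 0.586, 0.578, 0.553, 0.373, 0.503, 0.533, 0.811 and 0.368 along 1427870_x_at, 1425385_a_at, 1425247_a_at, 1452535_at, 1425324_x_at, 1427756_x_at, 1427869_at and 1451949_at. Without tumour 18, further genes turned once the low pan B cell cluster was left out too, among them Pou2af1 (-0.11), Fcrla (-0.10), Adgre1 (0.10) and Cd68 (0.09).

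Relations changed as follows (r). Without the low pan B cell cluster Igha with Iglv1 was -0.0518, Ighm with the precursor B score -0.000585 and Iglv1 with the mature B score 0.461 (adjusted p = 0.051). Without tumours 2, 6 and 8 Ighm with Igha was -0.07 and Igha with Iglv1 -0.0778. With the probe sets of a chain averaged, Ighm with Igha was 0.748 (adjusted p = 0.00012), Ighm with Iglv1 0.453, Ighm with the mature B score 0.533, Ighm with the plasma score 0.595, Igha with the mature B score 0.381, Iglv1 with the pan B score 0.893 in the low and 0.392 (adjusted p = 0.067) in the high cluster, Iglv1 with the precursor B score 0.0544, with the plasma score 0.493 and with the salivary score -0.0614 in the low cluster. Given the pan B score Igha with Iglv1 was -0.0047 and Igha with the mature B score 0.474. Without tumour 18 Ighm with Iglv1 was 0.497, Igha with Iglv1 -0.00157, Ighm with the pan B score 0.357 in the high cluster, with the mature B score 0.765 and with the plasma score 0.261, and Iglv1 with the pan B score 0.948 in the low cluster, where adjustment alone moved it. Without tumour 2 Ighm with Igha was -0.0216.

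Limits of these data: RMA values carry no detection call, so a level at the array median is only a bound, and dim probe sets can hide further low tumours. Bulk tissue mixes tumour with other cells.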
